A study of Mus musculus with 15 samples.

Results

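Glucocorticoid-induced genes are transcripts whose level rises when the hormone corticosterone binds the glucocorticoid receptor. The group was a fixed list of 9 genes, Fkbp5, Tsc22d3, Sgk1, Zbtb16, Klf9, Klf15, Nr3c1, Errfi1 and Dusp1, and a gene was taken as measured when the accession of a non-control probe mapped to its symbol. Of the 9 listed genes, 8 had a probe, out of 18350 genes with a probe on the array, and Zbtb16, a zinc finger transcription factor, matched none and has no value here. The 8 genes were read by 16 probes. All 16 passed the filter on dim probes, which asked for a signal well above background on 3 or more of the 15 arrays, so no measured gene was lost to it. Where a gene had several probes, the one with the highest mean signal stood for the gene and the others are given beside it.

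The samples were whole hearts of C57BL/6 mice, 1 heart per array, from 4 groups: 4 male mice given methamphetamine (meth), 4 male mice given phosphate-buffered saline (PBS), 4 female mice given meth and 3 female mice given PBS. Meth was injected into the abdomen weekly for 5 months in rising doses that ended at 40 mg/kg, and the PBS mice had the same schedule without the drug. The males came from 2 trials, with 2 meth and 2 PBS mice in each, and the titles place all females in trial 1, although the source labels put meth mice 3 and 4 and PBS mouse 3 among the females in trial 2. Many meth males, but no females, died before the end, so the male meth hearts are those of survivors. RNA of the whole organ was measured, in which fewer cells of a type and less RNA per cell cannot be told apart. Each value below is a normalized log2 signal, the log2 of the probe's processed intensity minus the 75th percentile of that array, so that a negative level is a signal below that percentile. Values of males are given in the order mouse 1 and 2 of trial 1, then mouse 1 and 2 of trial 2, and those of females by mouse number.

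In the absence of hormone the glucocorticoid receptor is held in the cytoplasm by heat shock chaperones. Once bound, it moves to the nucleus and binds DNA at the glucocorticoid response element, a pair of inverted half-sites, to raise transcription of genes such as Fkbp5 and Tsc22d3. The list also holds Nr3c1, the gene of the receptor itself. Several of the listed genes act back on hormone signaling or on stress kinases, and in heart muscle the receptor and its targets Klf15 and Klf9 are known for control of metabolism. The circadian rhythm of corticosterone gives many of these genes a daily rhythm in the heart.

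Responses over both sexes were taken as the average of the male and female responses. At the probes that stood for the genes, Tsc22d3 rose and Errfi1 fell in meth hearts, and the other 6 measured genes did not pass the test. These 2 calls among 8 genes compare with 751 of 28357 probes on the whole array, or 2.65%. Another probe of Fkbp5 was called over both sexes, at a log2 fold change of 0.60 (adjusted p = 0.010). In males alone 1 of 8 genes, Tsc22d3, passed, beside 314 of 28357 probes (1.11%). In females alone 0 of 8 passed at the probes that stood for the genes, beside 215 of 28357 probes (0.758%), while 2 of the 8 had an unadjusted p under 0.05 in limma. The median log2 fold change of the 8 genes was 0.16 in males and 0.06 in females, against -0.03 and 0.00064 over all probes tested. The sign was positive for 5 of 8 genes in males and 6 of 8 in females. These medians and counts include the receptor gene Nr3c1, at -0.05 in males and 0.06 in females.

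**Figure D1:**
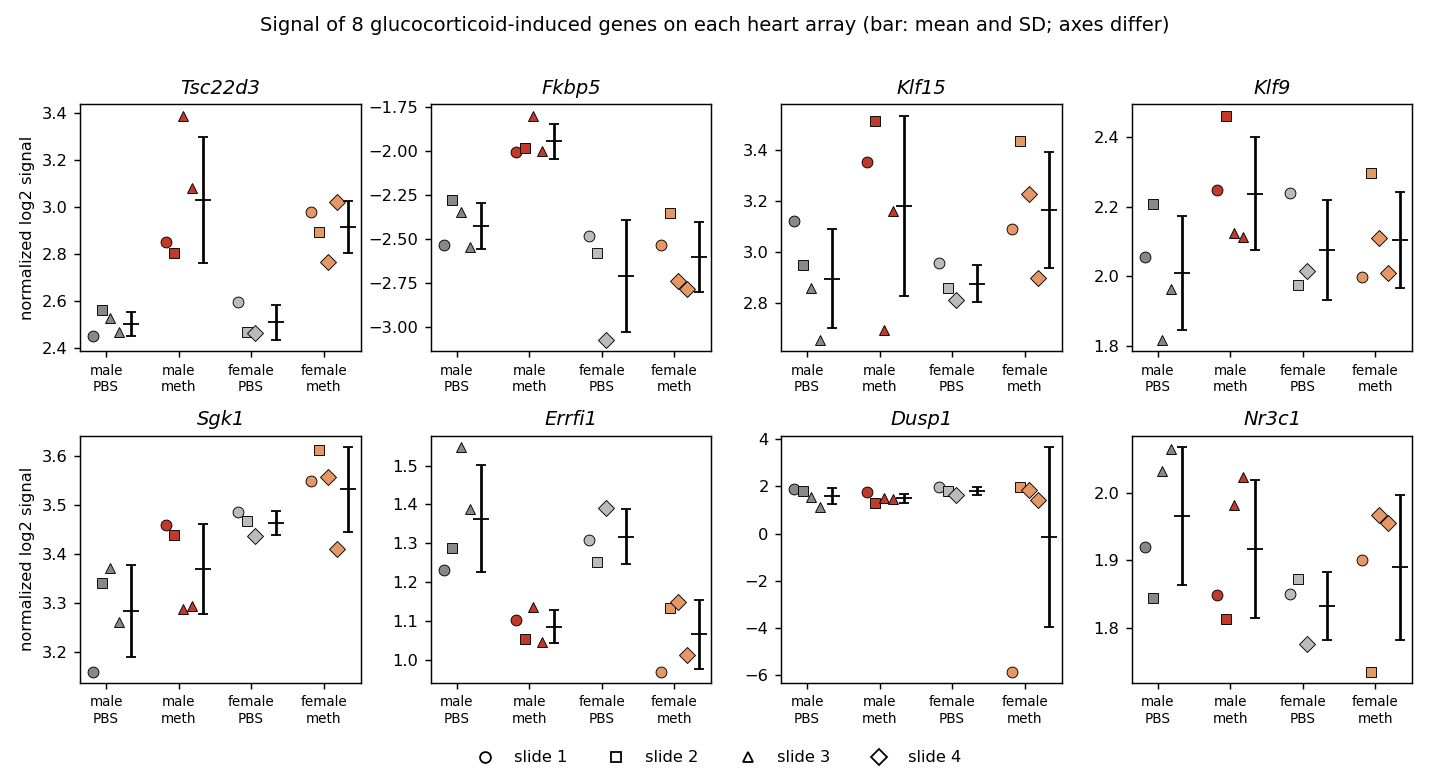
Normalized log2 signal of the 8 measured genes on each of the 15 heart arrays (y axis, a separate range per gene) in the 4 groups (x axis), with point shape giving the slide and the bar the mean and SD. The meth arrays of Tsc22d3 all lie above, and those of Errfi1 all below, the PBS arrays of their sex, and 1 female meth array of Dusp1 lies at -5.83.

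Nr3c1 encodes the glucocorticoid receptor itself. Its brightest probe read 1.85, 1.81, 1.98 and 2.02 in the meth males and 1.92, 1.84, 2.03 and 2.07 in the PBS males. The female meth hearts read 1.90, 1.74, 1.97 and 1.96, and the female PBS hearts 1.85, 1.87 and 1.78. The groups overlapped in both sexes, and in males both trial 2 pairs were higher than both trial 1 pairs in either treatment. Trial 1 males were on slides 1 and 2 in scan session 1, and trial 2 males on slide 3 in session 2. A difference between trials therefore cannot be told apart from that of slides or sessions. The meth over PBS log2 fold change was -0.05 in males (95% interval -0.19 to 0.09) and 0.06 in females (-0.09 to 0.21), with adjusted p = 0.81 and 0.86. The other 3 probes of Nr3c1 gave male values from -0.22 to 0.05 and female values from -0.28 to -0.11. Within a slide, the mean of the meth hearts of a sex was compared with the mean of its PBS hearts. Slides 1 and 2 held 1 heart of each treatment per sex. Slide 3 held 2 males of each treatment, and slide 4 held 2 meth females and 1 PBS female. The dimmest Nr3c1 probe had a lower meth mean in all 6 such comparisons. Its value of -0.25 on the log2 scale over both sexes missed the threshold (adjusted p = 0.056).

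The receptor's partners were described by a list of 12 tested genes of 13 (the mineralocorticoid receptor Nr3c2, chaperones, coregulators and the enzymes that activate or inactivate corticosterone). None passed the test in males, in females or over both sexes, and the median over both sexes was 0.02 on the log2 scale. Fkbp4, the co-chaperone that promotes receptor transport, had a log2 fold change of -0.23 in males and 0.02 in females. Hsd11b1, which regenerates active corticosterone in tissue, had -0.14 and 0.09.

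Fkbp5 encodes FKBP51, a co-chaperone that lowers the affinity of the receptor for its ligand and is itself induced by the receptor. Its brightest probe read -2.005, -1.982, -1.799 and -1.998 in meth males and -2.53, -2.28, -2.35 and -2.54 in PBS males. All 4 meth males were above all 4 PBS males, and the log2 fold change was 0.48 ± 0.14 (SE), or 1.40-fold, with an exact two-sided permutation p = 0.0286, the smallest that 4 against 4 arrays allow. After adjustment over all probes limma did not call it (adjusted p = 0.14). Its female meth hearts read -2.53, -2.36, -2.74 and -2.79 and its female PBS hearts -2.48, -2.58 and -3.08, which overlapped, and the log2 fold change was 0.11 ± 0.15 (adjusted p = 0.88).

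The 3 probes of Fkbp5 disagreed in the females. The second probe read -2.70, -2.48, -2.38 and -2.36 in female meth hearts and -3.27, -3.41 and -3.19 in female PBS hearts. These groups were well apart, and this probe had a log2 fold change of 0.81 ± 0.15, or 1.76-fold, and was called in females (adjusted p = 0.031) and over both sexes (0.60, adjusted p = 0.010), but not in males (0.39, adjusted p = 0.26). The third and dimmest probe gave 0.36 in males and 0.35 in females, neither called. All 3 probes were positive in both sexes. The mean of the 3 probes was called over both sexes at 0.41 (adjusted p = 0.010).

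Each of the 4 slides held both treatments of at least 1 sex, and with slide as a fixed block the brightest probe was called in males at the same 0.48 (adjusted p = 0.022) and over both sexes at 0.33 (adjusted p = 0.018). That block raised the calls over all probes too, from 314 to 525 in males and from 751 to 1253 over both sexes. Within slides the brightest probe had a higher meth mean in 5 of 6 comparisons. The differences were 0.53, 0.30 and 0.55 on the 3 slides of males and -0.05, 0.22 and 0.31 on the 3 slides of females.

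The 250 bases before the start site of Fkbp5 in RefSeq (GRCm38.p6, chr17:28486150-28486399, minus strand) hold no glucocorticoid half-site, searched as TGTTCT on both strands, and hold 1 E-box, CACGTG, the motif bound by the clock factors encoded by Arntl and Clock. They are shown with the E-box in capitals. Klf15, Sgk1 and Dusp1 also had an E-box.
Fkbp5: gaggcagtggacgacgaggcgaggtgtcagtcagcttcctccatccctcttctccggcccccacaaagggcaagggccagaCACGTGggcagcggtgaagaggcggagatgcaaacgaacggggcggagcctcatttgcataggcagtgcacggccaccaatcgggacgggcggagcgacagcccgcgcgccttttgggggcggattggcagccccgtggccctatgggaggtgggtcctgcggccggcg
E-boxes occurred in 6.02% and half-sites in 16.1% of the 32851 RefSeq promoter windows of the same 250 bases, and such a match is a description of the letters only.

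Tsc22d3 encodes GILZ, a leucine zipper protein that carries part of the anti-inflammatory action of glucocorticoids, and it gave the clearest rise of the 8 genes. Its brightest probe read 2.85, 2.80, 3.39 and 3.08 in meth males and 2.45, 2.56, 2.53 and 2.47 in PBS males. The meth females read 2.98, 2.89, 2.77 and 3.02 and the PBS females 2.60, 2.47 and 2.46. In both sexes every meth heart was above every PBS heart of that sex. The rise in males was 0.53 ± 0.10 (SE) on the log2 scale, or 1.44-fold (adjusted p = 0.028), and the female value was 0.41 ± 0.11, or 1.33-fold (adjusted p = 0.12). Over both sexes it was 0.47 ± 0.07, or 1.38-fold (adjusted p = 0.0066). The exact permutation p was 0.0286 in males and 0.0571 in females, each the smallest that its numbers of arrays allow in a two-sided test, and the females could not reach 0.05.

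Its second probe gave 0.42 in males, 0.41 in females and 0.41 over both sexes, the last past the threshold (adjusted p = 0.011), and its meth and PBS arrays were apart in both sexes too. Within slides the brightest probe had a higher meth mean in 6 of 6 comparisons, from 0.24 to 0.74. The male call was lost when any of 5 single male arrays was left out (meth mouse 1 or 2 or PBS mouse 1 or 2 of trial 2, or PBS mouse 1 of trial 1), with adjusted p from 0.059 to 0.11 and fold changes from 0.43 to 0.55. The value over both sexes kept its call whichever array was left out, but not with normexp background correction (0.47, adjusted p = 0.058), which also ended the male call (0.53, adjusted p = 0.25), nor with trial 1 arrays alone (0.36, adjusted p = 0.080). The male call was also lost with the replicate number as a block (0.53, adjusted p = 0.083), with no filter (0.53, adjusted p = 0.060) and, narrowly, with a shift by the median (0.50, adjusted p = 0.0504). Of all alternatives, 13 of 34 lost the male call and 3 of 33 lost the call over both sexes.

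The male response of Tsc22d3 was 0.32 in trial 1 and 0.74 in trial 2, where it was called (adjusted p = 0.027, beside 0.356% of all probes). The difference between the trials, which cannot be told apart from that of slides and scan sessions, was 0.41 ± 0.17, with an unadjusted p = 0.032 in limma and an adjusted p of 1.0. None of the 8 genes passed that comparison, and neither did any other probe (0 of 28357, 0.00%), although 1294 had an unadjusted p under 0.05.

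Of 3 RefSeq start sites of Tsc22d3 with a promoter entry, 1 (chrX:140600523-140600772, minus strand) had a glucocorticoid half-site, TGTTCT, 185 bases before the start. Half-sites occurred in 16.1% of all promoter windows of this length, and the match is a description of the letters only. The window is printed because Tsc22d3 is the gene that rose, with the half-site in capitals.
Tsc22d3: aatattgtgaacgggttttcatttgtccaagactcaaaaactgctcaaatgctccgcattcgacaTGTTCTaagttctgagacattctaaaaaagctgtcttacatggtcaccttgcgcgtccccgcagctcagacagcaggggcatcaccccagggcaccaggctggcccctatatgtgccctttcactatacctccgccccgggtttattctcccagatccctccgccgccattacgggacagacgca

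**Figure D2:**
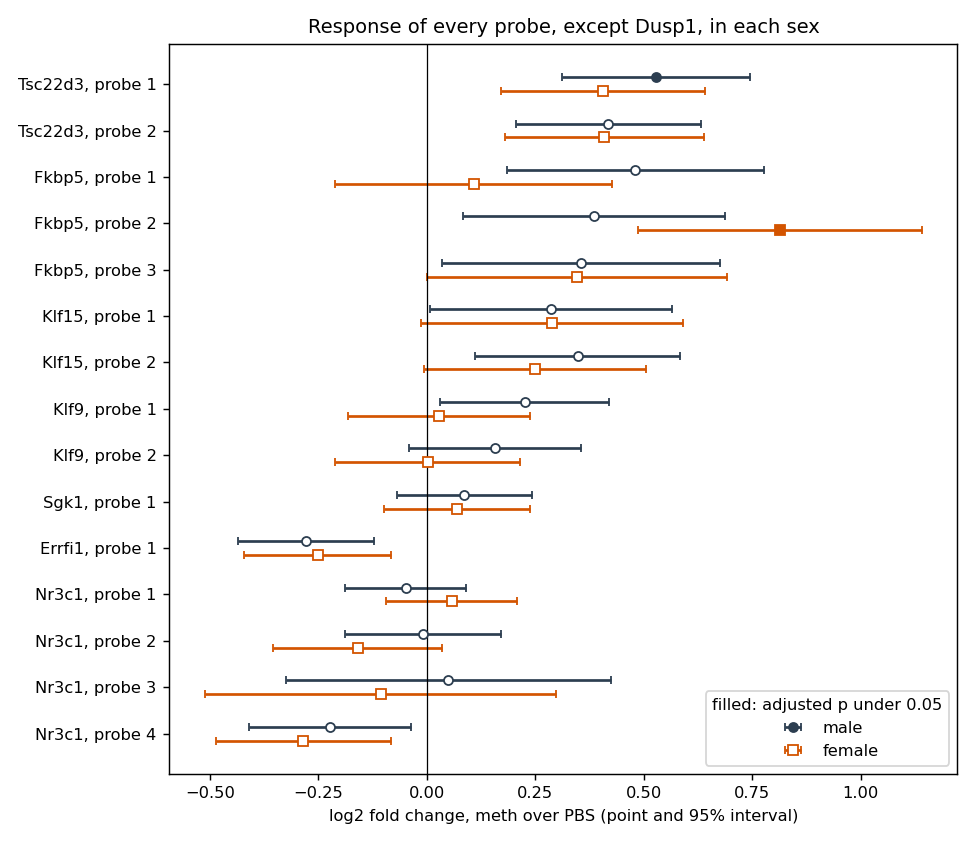
Log2 fold change, meth over PBS, with its 95% interval (x axis) for every probe of the measured genes except Dusp1 (y axis, probes ordered from bright to dim within a gene), in males and females. Filled points, at 0.53 for the first Tsc22d3 probe in males and 0.81 for the second Fkbp5 probe in females, mark an adjusted p under 0.05, and both Tsc22d3 probes lie to the right of 0 in both sexes while Errfi1 lies to the left.

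Errfi1 encodes an inhibitor of the EGF receptor family kinases, known in the heart as a stress and hormone induced gene. It fell. Its probe read 1.102, 1.054, 1.136 and 1.047 in meth males and 1.23, 1.29, 1.55 and 1.39 in PBS males, and 0.97, 1.13, 1.15 and 1.01 in meth females against 1.31, 1.25 and 1.39 in PBS females. Every meth heart was below every PBS heart of its sex. The log2 fold change was -0.28 ± 0.07 in males and -0.25 ± 0.08 in females, neither called alone (adjusted p = 0.11 and 0.19). Over both sexes it was -0.27 ± 0.05, or 0.832-fold (adjusted p = 0.022). Its meth mean was lower in 6 of 6 comparisons within slides, from -0.38 to -0.12. The call over both sexes was lost in 8 of 32 alternatives. Without female PBS mouse 1 it was missed at the same size (-0.27, adjusted p = 0.055), as it was with the replicate number as a block (-0.26, adjusted p = 0.061), normexp background correction (-0.23, adjusted p = 0.24) and a shift by the median (-0.24, adjusted p = 0.068). It was also lost with no filter, with trial 1 arrays alone, without slide 4 and in the paired t-test. Neither of its 2 promoter entries held a half-site or an E-box.

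Counted by overlap alone, 3 of 8 genes had meth and PBS arrays fully apart in males (Tsc22d3 and Fkbp5 above, Errfi1 below), beside 9.86% of the probes tested. In females 2 of 8 were apart (Tsc22d3 and Errfi1), beside 9.07%.

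Sgk1 encodes a serine/threonine kinase that raises sodium channel activity and cell survival under glucocorticoids and mineralocorticoids. Its probe read 3.46, 3.44, 3.29 and 3.29 in meth males, 3.16, 3.34, 3.37 and 3.26 in PBS males, 3.55, 3.61, 3.56 and 3.41 in meth females and 3.49, 3.47 and 3.44 in PBS females. Groups overlapped in both sexes, and the trial 2 meth males were below the trial 1 meth males. The log2 fold change was 0.09 in males (95% interval -0.07 to 0.24) and 0.07 in females (-0.10 to 0.24), with adjusted p = 0.67 and 0.84. A rise as large as that of Tsc22d3 over both sexes lies outside both intervals.

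Sgk1 was nevertheless the gene of the group with a complete glucocorticoid response element near a start site. The 15-base inverted repeat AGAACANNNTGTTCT, built from the half-site on both strands with 3 free bases between, occurred in 3 of 32851 promoter windows (0.00913%), and 1 of those 3 was a Sgk1 window (chr10:21993640-21993889, plus strand), 189 bases before the start. Allowing the relaxed form GNACANNNTGTNC gave 127 windows (0.387%) and no further gene among the 7 with a promoter entry. Nr3c1 had no entry and was not searched. Sgk1 had 6 of the 15 promoter entries of the group, more than any other gene, and 3 of its entries held a half-site. The window is printed with the element in capitals.
Sgk1: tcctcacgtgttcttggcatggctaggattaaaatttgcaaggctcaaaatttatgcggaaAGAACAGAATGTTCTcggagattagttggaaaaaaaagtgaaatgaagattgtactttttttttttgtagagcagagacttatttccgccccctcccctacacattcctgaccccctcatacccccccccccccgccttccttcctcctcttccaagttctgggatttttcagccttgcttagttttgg

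Dusp1 encodes a phosphatase that switches off the stress kinases p38 and JNK. Its probe read 1.75, 1.30, 1.51 and 1.45 in meth males, 1.88, 1.79, 1.54 and 1.14 in PBS males and 2.00, 1.81 and 1.65 in PBS females. The meth females read -5.83, 1.98, 1.86 and 1.43. The first of these hearts had a signal of 5.52, not well above background and with no outlier flag, while the signals on the other 14 arrays ran from 706 to 2103. On that array 22 tested probes lay more than 4 log2 units below every other array, and the spots of all 22 fell in rows 55 to 69 and columns 48 to 51 of an array of 532 rows and 85 columns. With that array the female log2 fold change was -1.96 ± 1.44. Without it, it was -0.065 ± 0.18 (adjusted p = 0.91), and in males it was -0.089 ± 0.16 (adjusted p = 0.86). Its spread entered the pooled error of Dusp1, so values without that array are the ones with a usable interval.

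Klf15 and Klf9 encode Kruppel-like transcription factors. Klf15 directs amino acid and lipid use and restrains hypertrophy in cardiomyocytes, and its brightest probe read 3.35, 3.52, 2.69 and 3.16 in meth males and 3.12, 2.95, 2.86 and 2.65 in PBS males. The meth females read 3.09, 3.44, 3.23 and 2.90 and the PBS females 2.95, 2.86 and 2.81. In each sex 3 of 4 meth hearts were above every PBS heart and 1 was not. The log2 fold change was 0.29 ± 0.13 in males and 0.29 ± 0.14 in females, and over both sexes 0.29 ± 0.09, which was not called (adjusted p = 0.15). The second probe gave 0.35, 0.25 and 0.30 (adjusted p = 0.075 over both sexes). Both probes had a higher meth mean in 6 of 6 comparisons within slides. Single hearts overlapped: on slide 3, meth male 1 of trial 2 (2.69) was below PBS male 1 (2.86) at the brightest probe. At the second probe on slide 4, meth female 4 (-0.56) was below the PBS female (-0.53).

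The promoter window of Klf15 (chr6:90462326-90462575, plus strand) held 2 E-boxes, 228 and 172 bases before the start, shown in capitals, and no half-site.
Klf15: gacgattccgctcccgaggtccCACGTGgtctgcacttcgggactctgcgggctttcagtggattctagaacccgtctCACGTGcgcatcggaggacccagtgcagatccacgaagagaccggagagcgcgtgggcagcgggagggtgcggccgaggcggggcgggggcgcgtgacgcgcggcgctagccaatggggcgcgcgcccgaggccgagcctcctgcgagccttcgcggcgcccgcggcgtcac

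Of 11 tested Klf15 targets of amino acid and lipid metabolism none passed in males, females or over both sexes, and their median over both sexes was -0.05.

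Klf9 is a repressor that links hormone rhythm to cell proliferation. Its brightest probe read 2.25, 2.46, 2.13 and 2.11 in meth males, 2.05, 2.21, 1.82 and 1.96 in PBS males, 2.00, 2.29, 2.11 and 2.01 in meth females and 2.24, 1.97 and 2.01 in PBS females. All groups overlapped. Males differed by 0.23 ± 0.09 on the log2 scale (adjusted p = 0.31) and females by 0.03 ± 0.10, and the second probe gave 0.16 and 0.0014. Of the 12 other Kruppel-like factors tested, none passed.

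**Figure D3:**
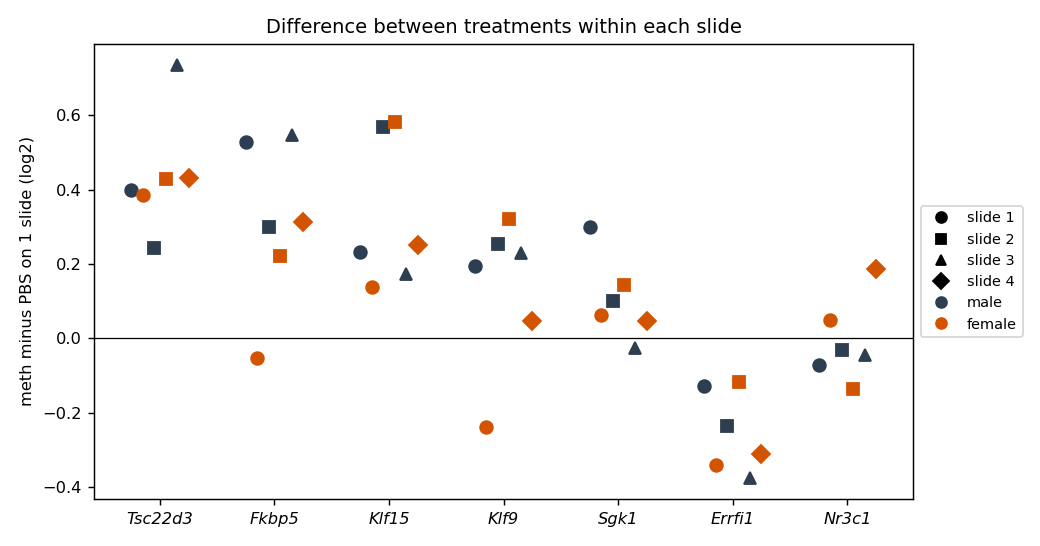
Meth mean minus PBS mean of normalized log2 signal (y axis) within each slide for 7 genes (x axis), 1 point per slide and sex. All 6 points of Tsc22d3 and Klf15 lie above 0 and all 6 of Errfi1 lie below 0.

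No gene of the group passed the test for a response that differed between the sexes. The male response minus the female response was largest for Fkbp5 among the genes other than Dusp1, at 0.37 at its brightest probe (95% interval -0.06 to 0.81, adjusted p = 0.64). The other Fkbp5 probes gave -0.43 (-0.87 to 0.02, adjusted p = 0.60) and 0.0099, so its probes gave no single direction. The difference was 0.12 for Tsc22d3 (-0.20 to 0.44) and -0.03 for Errfi1 (-0.26 to 0.20). None of 8 passed, beside 39 of 28357 probes (0.138%), and none had an unadjusted p under 0.05. None of the 8 genes passed the test between PBS hearts of males and females either, beside 136 of 28357 probes (0.480%). At the brightest probes, male minus female values ran from -0.16 for Sgk1 to 0.27 for Fkbp5. The other Fkbp5 probes gave 0.33 and -0.37, with no single direction. The dimmest Nr3c1 probe gave -0.50, which missed the threshold (adjusted p = 0.058). A missed threshold with 7 or 8 arrays per sex does not show that the sexes are alike.

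Other genes that glucocorticoids induce were described by a second list of 30, of which 29 were tested. In males 3 rose and none fell, beside 1.11% of all probes called, and over both sexes 4 rose and none fell, beside 2.65%. The median log2 fold change was 0.17 in males, 0.03 in females and 0.15 over both sexes. Over all probes tested the medians were -0.03, 0.00064 and -0.015. Per1, a clock gene with a glucocorticoid response element of its own, read 0.76, 0.96, 1.08 and 0.96 in meth males and -0.19, 0.28, -0.28 and -0.35 in PBS males, fully apart, with a rise of 1.08 ± 0.17 on the log2 scale (adjusted p = 0.011). The metallothionein Mt2 rose by 0.90 ± 0.17 in males (adjusted p = 0.026), and its female value of 0.71 missed the threshold (adjusted p = 0.11). Foxo3, a transcription factor of muscle wasting, rose by 0.98 ± 0.18 in males (adjusted p = 0.026) from a dim probe that was well above background on 3 of the 4 male PBS arrays. The male call of Foxo3 was kept in 18 of 32 alternatives and lost in 14, with values from 0.21 to 1.06. That of Mt2 was kept in 23 of 33 and lost in 10. Cebpd, named after its value was seen as the 4th of the 4, was called over both sexes alone, at 0.37. In females none of the 29 passed, beside 0.758% of all probes.

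**Figure D4:**
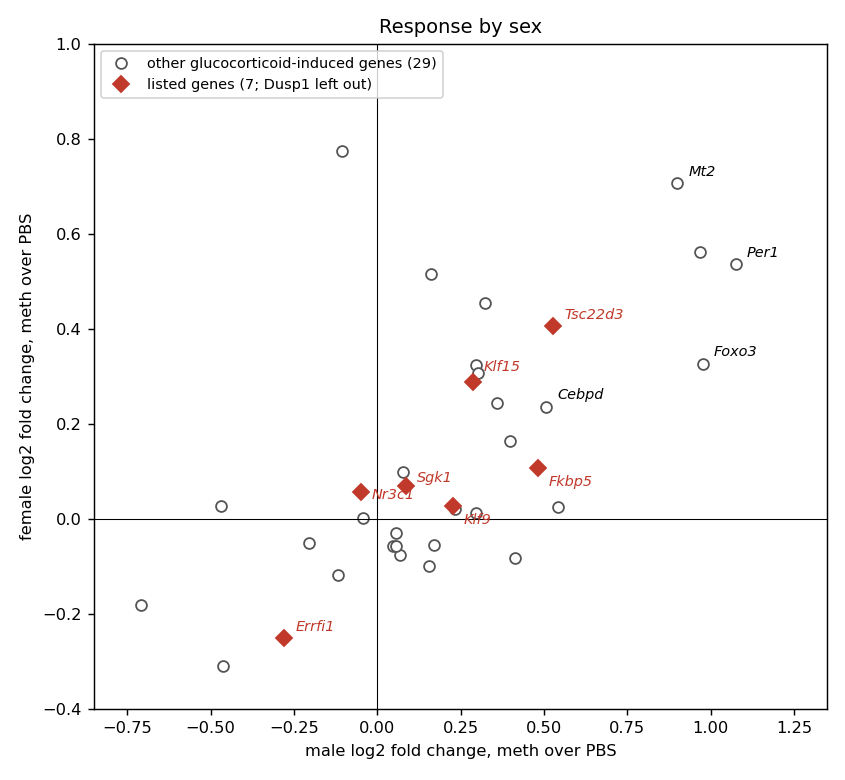
Log2 fold change, meth over PBS, in males (x axis) against females (y axis) for 7 listed genes (diamonds) and 29 other glucocorticoid-induced genes (circles), 1 point per gene. Tsc22d3 lies at 0.53 and 0.41 and Errfi1 at -0.28 and -0.25, and Per1, Mt2 and Foxo3 lie farther to the right than any listed gene.

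Of the genes that glucocorticoids repress, none of 10 inflammatory genes passed in either sex, and their median over both sexes was 0.15. The families of the listed genes were also without a call, with 0 of 3 other Tsc22 genes, 0 of 1 other Sgk gene, 0 of 8 other MAP kinase phosphatases and 0 of 11 other FKBP genes in males, in females or over both sexes. Of 10 immediate early genes, which respond to acute stimuli, 1 rose, Ier3, by 0.71 in males and 0.90 in females (adjusted p = 0.022 and 0.014). Over all probes 1.11% and 0.758% were called in males and females. The male call of Ier3 was kept in 22 of 33 alternatives and lost in 11.

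Several clock genes had larger fold changes in the same hearts than any listed gene. Of 13 genes whose rhythm runs opposite to Arntl, all 13 were positive in each sex, and 8 rose in males, 2 in females and 11 over both sexes. Over all probes 1.11%, 0.758% and 2.65% were called. Per1 is in this list as well as in the list of glucocorticoid-induced genes. Ciart, a repressor of the clock, rose by 3.18 in males, Per2 by 1.97 in males and 2.04 in females, and Arntl, the core activator, fell by 2.40 in males and by 1.81 in females on the log2 scale. These male values average 2 trials whose PBS levels differed. PBS males read -2.39, -2.18, -5.42 and -5.17 for Ciart and 0.15, 0.25, 1.08 and 1.22 for Arntl. The trials were closer for Per2, at -2.88, -2.53, -3.11 and -3.34. The female call of Arntl was kept in 10 of 33 alternatives and lost in 23. Alternative values of Per2 ran from 0.28 to 2.17 in males and from 0.23 to 2.17 in females. The mean level of the 13 genes ran from 0.55 to 0.68 in meth males against -0.82 to -0.03 in PBS males, and from 0.22 to 0.42 in meth females against -0.62 to -0.45 in PBS females. The hour at which hearts were taken is not given in the sources used here. The part of the clock in the responses of Tsc22d3, Fkbp5, Klf15 and Errfi1 was not tested.

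Markers of tissue outside the heart also moved. The counts below stand beside 1.11% of all probes called in males, 0.758% in females and 2.65% over both sexes. Of 6 tested secretory airway markers all 6 rose in males and 2 in females. Their mean level was 2.46 to 4.76 in meth males and -5.37 to -4.88 in PBS males, and -2.64 to -0.72 in meth females and -3.59 to -2.69 in PBS females. Among 6 fat markers 1 rose in males, none passed in females and 2 rose over both sexes, with a mean level of 1.87 to 4.14 in meth males, 1.37 to 3.12 in PBS males, 2.51 to 3.12 in meth females and 1.50 to 2.20 in PBS females. Ciliated airway markers rose in males in 2 of 3, alveolar markers rose in 2 of 4 in males while 1 of 4 fell in females, and general epithelial markers rose in 2 of 4 in males. None of 8 cardiomyocyte, 6 leukocyte, 4 endothelial, 4 fibroblast, 4 skeletal muscle, 2 thymus or 1 liver markers passed in either sex, and the cardiomyocyte mean level was 8.06 to 8.51 on all arrays. The part of airway and fat tissue in the responses of the listed genes was not tested.

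Across mice the other 7 genes were set against Fkbp5 as deviations from the mean of each sex, treatment and trial, over 15 arrays. Sgk1 had the highest value, Pearson r = 0.65 (permutation p = 0.018, adjusted over the 7 relations 0.13) and Spearman rho = 0.64 (permutation p = 0.039, adjusted 0.27). None of the 7 relations passed after adjustment. Tsc22d3 had r = 0.40 (permutation p = 0.19) and rho = 0.44, and Nr3c1 had r = -0.36 (permutation p = 0.33) and rho = -0.40, with adjusted p = 0.51 for both r values. Without the 2 arrays farthest from the median of Fkbp5, r was 0.84 for Sgk1, -0.91 for Nr3c1, 0.56 for Klf15, 0.50 for Klf9, 0.40 for Errfi1, 0.27 for Tsc22d3 and -0.15 for Dusp1. These values were not tested. Mouse 1 of trial 2 among the meth males was left out, so the array left in that group equals its own mean. The other male groups hold 2 arrays each, whose deviations mirror each other, so few free deviations remain.

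The genes whose levels over the 15 arrays were most like each listed gene, out of 14196 others, were Mthfd1l (r = 0.92) and Cys1 (0.91) for Tsc22d3, Dusp14 (0.92) and Cyp39a1 (0.90) for Fkbp5, and Ccndbp1 (0.89) and Slc25a33 (0.87) for Klf15. They were Slc41a3 (0.92) and Arap2 (0.92) for Errfi1, Sdcbp2 (0.91) and Kif26a (0.87) for Sgk1, Nt5dc2 (0.90) and Cfap126 (0.88) for Klf9, and Wdr43 (0.88) and Slc25a32 (0.83) for Nr3c1. For Dusp1 they were Dusp28 and Ints12 (r = 0.99 for both), whose probes are among the 22 low ones on the array described above, and their Spearman rho was 0.56 and 0.46. These r values hold the differences between treatments, sexes and slides as well as those between mice, and are a description.

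Depth and quality bear on these values as follows. The 75th percentile of signal ran from 307 to 589 over the arrays, with the 3 arrays of slide 4 the brightest, between 61.3% and 71.4% of spots were well above background, and no spot was saturated. Every probe of the listed genes was well above background on all 15 arrays, except Dusp1 on 1 female meth array and the dimmest Fkbp5 probe on 2 male PBS arrays. The number of arrays, 3 or 4 a group, limits the precision.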

How the data were processed

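Cy3-labeled cRNA of 15 mouse hearts was hybridized by the authors to Agilent 4x44K v1 mouse arrays, 1 color, on 4 slides scanned in 3 sessions. The deposited files per array hold spot intensity from Agilent Feature Extraction (version 10.5.1.1 per the file headers, 9.1 in the submitters' processing notes), background-subtracted by that program (gProcessedSignal). The deposited value table holds log2 values equal to the log2 of that intensity shifted by a constant per array, and was used as an alternative. The build used for the array annotation was not used for coordinates. Promoter sequences and gene names came from RefSeq tables (GRCm38.p6), by accession, which named 26918 of 41174 non-control probes.

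Signals were log2 transformed and the 75th percentile of each array was subtracted. Spots of a probe were averaged and 28357 probes were kept, those with a signal well above background in 3 or more arrays. limma 3.58.1 (R 4.3.3; lmFit and eBayes) fitted the 4 groups with trial as a covariate, and a fit with 6 groups gave the male response by trial. Benjamini-Hochberg adjustment was over all probes tested, at 0.05. Group values are given as means or folds of the fit with the SE, and intervals are at 95%. Single values were also tested by exact permutation, and relations by 100000 permutations within groups (Python 3.11.15, scipy 1.17.1, numpy 2.4.6). The fit of the 4 groups was tested on simulated data for the male response, the female response and their difference. The other fits were not tested in this way.

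The listed genes, other lists and markers were chosen with earlier results of these data known. Text names the 8 measured genes by their brightest probe, from each list up to 3 genes per direction past the threshold by size in males, females and both sexes, and for each listed gene the 2 most correlated genes; examples from lists with no call were chosen after their values were seen. The fit and the permutation tests were unpaired, and a fit with the replicate number as a block was an alternative. Meth and PBS mice of the same sex, trial and number shared a slide. In females their deviations from the group means correlated at 0.30, 0.44 and 0.66. In males the correlation was -0.085 in trial 1 and 0.0099 in trial 2. Each male group of a trial holds 2 arrays, whose deviations mirror each other. Both pairs of a trial therefore share 1 value, which cannot be compared with the female values. Alternatives changed the background correction, scaling, filter, trial term, slide, scan session, probe and arrays.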

Additional observations from a re-analysis of the deposited data

Results flagged for a closer look

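Of 24 groups of 4 arrays examined for a single array far from the rest, 2 had one, and chance alone gives about 1 in 20 such groups. Dusp1 in the meth females had a lowest value of -5.83, and the gap to the next array was 0.930 of the range of the group. That array was not well above background for Dusp1, and its 22 low spots lay in rows 55 to 69 and columns 48 to 51. Without it the female log2 fold change of Dusp1 was -0.07 in place of -1.96. Fkbp5 in the meth males had a highest value of -1.80, in mouse 1 of trial 2, with a gap of 0.886 of the range. The other 3 meth males lay between -2.01 and -1.98, so all 4 remained above the PBS males, and the male log2 fold change without that array is within the range given for single arrays left out in the part on processing.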

How the results depend on the processing

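Of 1808 alternative values computed for the named genes, 1601 kept their direction and their side of the threshold, 149 lost a call, 26 gained one and 32 changed sign. The count of listed genes called in males was 1. It was 0 with normexp background correction, with a shift by the median, with no filter, with trial 1 arrays alone, and with the methods' t-test paired or unpaired. It was 2, with Fkbp5 added, with slide as a fixed block, scan session as a fixed block, slide as a random block and without slide 4, which gave 525, 667, 587 and 371 calls over all probes against 314. Leaving out single arrays gave 0 to 1. Over both sexes the count was 2. It was 0 with normexp, trial 1 arrays alone and the paired t-test, and 1, Tsc22d3, with a median shift, no filter and without slide 4. It was 3, with Fkbp5 added, with slide as a fixed block, scan session as a fixed block, slide as a random block and the mean over probes (1253, 1508, 1338 and 752 calls over all probes, against 751). It was 1 to 2 with single arrays left out, 1 without female PBS mouse 1. In females the count was 0 under all 33 alternatives, which used the brightest probes or the mean over probes. Taken in place of its brightest probe, the second Fkbp5 probe was called in females (0.81, adjusted p = 0.031 in limma). No listed gene was called for the difference between sexes, PBS hearts or trials under the alternatives run. The cause of these changes was not tested.

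With the replicate number as a block (paired, female meth mouse 4 having no partner), the male count was 0, at 0.53 for Tsc22d3 (adjusted p = 0.083), and the count over both sexes was 1, Tsc22d3. Over all probes this block gave 157 calls against 314 in males, 101 against 215 in females and 576 against 751 over both sexes. It could not be fitted between PBS hearts of the sexes, whose pairs each lie within a sex, and was not run for the trials, and the counts of listed genes in females and between the sexes stayed 0.

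Over both sexes 319 of 751 calls on the whole array were higher, against 83 of 112 with normexp and 351 of 635 with the median shift. In females the split was 58 of 215, against 20 of 27 and 73 of 124. The median shift moved the median of all probes from -0.015 to -0.12 for the difference between the sexes and from -0.028 to 0.094 for PBS hearts.

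Values near 0 changed sign. For the female value of Klf9 it was -0.011 with quantile scaling, and for Sgk1 -0.019 with normexp. With single arrays left out, the female value ran from -0.074 to 0.22 for Fkbp5 and from -0.036 to 0.11 for Klf9, and the male value of Dusp1 from -0.21 to 0.045. The male value of Fkbp5 ran from 0.43 to 0.54. For Nr3c1 the other probes gave 0.050 in males, -0.16, -0.11 and -0.28 in females and -0.084, -0.029 and -0.25 over both sexes, and the mean over probes gave -0.12 in females and -0.091 over both sexes. Its value of 0.0041 over both sexes was -0.00042 with quantile scaling, -0.0057 with trial by source name, -0.00029 with slide or scan session as a fixed block, -0.0070 with the replicate block, -0.013 in the paired t-test and -0.046 without slide 4 (-0.044 in females), and ran from -0.010 to 0.030 with single arrays left out. Against Fkbp5, r was -0.076 for Klf15 and 0.44 for Dusp1 without slide 4, and -0.021 for Errfi1 with deviations from the 4 groups. Without slide 4 it was 0.86 for Errfi1 (0.018 with all arrays) and -0.80 for Nr3c1 (-0.36), with adjusted permutation p = 0.21 for both.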
